A study of Homo sapiens with 10 samples.

Results

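The human hairpin probe sets of a miRNA array, which are made against the stem-loop precursors of miRNAs, were examined in HEK-293 cells after silencing of 2 long noncoding RNAs. Members were chosen by their measured signal: they are the probe sets named for a human hairpin whose mean log2 signal over all 10 arrays was above 1.31, and 81 of 1121 human hairpin probe sets met that rule (7.23%). The level of 1.31 was the 95th percentile of the means of 2392 probe sets for plant miRNAs, which human cells do not make, and is called the floor below. By that construction 4.93% of the plant probe sets were above it, so the 7.23% of hairpins exceeded the share of plant probe sets by little. The same level was passed by 29.8% of 1100 human mature miRNA probe sets and by 13.3% of 2342 probe sets for human snoRNAs and scaRNAs, the small RNAs that guide modification of other RNAs. The members' levels chose them, so these levels are given as a description and support nothing.

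A miRNA is first transcribed as part of a long primary transcript. In the nucleus the enzyme Drosha, with its partner DGCR8, cuts out a stem-loop of a few turns of helix, the hairpin precursor, which is exported and cut by Dicer into the short mature miRNA that acts on target mRNAs. Mirtrons take another way in: they are short introns whose ends are set by splicing, so that they skip Drosha. Precursors are usually short-lived, and a mature miRNA can be abundant where its precursor is scarce. A hairpin probe set may also bind the primary transcript or the mature strand, and which of these RNAs gave a signal was not tested here.

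HEK-293 is a line derived from human embryonic kidney. All cells were transfected with 10 nM siRNA, and total RNA was hybridised to 10 arrays in 5 groups of 2: a scramble siRNA as the control, siRNA 1 or siRNA 2 against LINC00324, and siRNA 1 or siRNA 2 against LOC400043. The series asks whether such long RNAs act as miRNA sponges. Neither LINC00324 nor LOC400043 has a probe set on these arrays, and how far each was silenced was not checked. The labels call the arrays biological replicates without naming separate cultures, so p-values measure the spread between these arrays, which may be technical. In such bulk RNA, a change in the number of cells that express an RNA and a change in its amount per cell cannot be told apart.

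The scramble and LINC00324 arrays were normalized in 1 run and the LOC400043 arrays in another, in which no hairpin has a scramble value here. LINC00324 groups were therefore compared with scramble, and the LOC400043 siRNAs only with each other. For 318 mature probe sets above the floor, the scramble mean differed between the runs by a median of 0.08 log2 (SD 0.24, range -1.15 to 0.89). These are the same 2 scramble arrays normalized in each run, so no difference between arrays and no hairpin is covered. The error of a hairpin level set across the runs was not measured. Of 20 mature probe sets of miRNAs abundant in HEK-293 cells, fixed as markers of the line, 15 were above the floor. Of the markers of other cell types, none of the 2 liver, 5 muscle, 4 mesenchyme and 10 pluripotent-cell mature probe sets was above it, while 3 of 9 blood, 1 of 4 neuron and 1 of 2 endothelium probe sets were, up to a mean of 4.14 for endothelium. Between replicate arrays of a group, Pearson's r over the 81 members lay between 0.692 and 0.887, against 0.973 to 0.987 over 328 mature probe sets above the floor, as a description across probe sets, which are not independent.

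Hairpin sequences were taken from RefSeq (GRCh38.p14), where 66 of the 81 members had an entry. The members printed here are some of the hairpins of highest mean, some of those with the lowest p-values in the comparisons, and 1 from the miR-17 cluster. Capitals mark the mature arms that the RefSeq table gives for the hairpin.
MIR1224: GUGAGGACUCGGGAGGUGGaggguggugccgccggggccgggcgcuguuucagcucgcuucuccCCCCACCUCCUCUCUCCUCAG
MIR423: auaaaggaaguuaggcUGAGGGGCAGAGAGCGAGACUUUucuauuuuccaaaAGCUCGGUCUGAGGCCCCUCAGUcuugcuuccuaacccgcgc
MIR3180-3: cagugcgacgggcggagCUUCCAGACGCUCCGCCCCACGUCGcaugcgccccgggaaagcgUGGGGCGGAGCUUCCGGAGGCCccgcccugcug
MIR3180-2: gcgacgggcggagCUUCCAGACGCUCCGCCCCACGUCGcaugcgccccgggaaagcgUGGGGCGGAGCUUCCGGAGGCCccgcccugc
MIR935: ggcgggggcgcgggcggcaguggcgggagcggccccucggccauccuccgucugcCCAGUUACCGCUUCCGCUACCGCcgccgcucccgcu
MIR92A1: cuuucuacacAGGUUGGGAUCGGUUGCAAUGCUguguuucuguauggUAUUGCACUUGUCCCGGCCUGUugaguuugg
MIR663B: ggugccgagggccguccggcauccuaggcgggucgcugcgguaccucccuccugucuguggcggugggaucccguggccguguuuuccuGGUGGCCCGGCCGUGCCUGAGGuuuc
MIR1914: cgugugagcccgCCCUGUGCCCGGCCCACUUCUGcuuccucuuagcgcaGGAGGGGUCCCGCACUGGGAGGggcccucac
MIR500B: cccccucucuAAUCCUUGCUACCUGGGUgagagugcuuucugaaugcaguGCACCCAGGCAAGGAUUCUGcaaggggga
MIR550A2: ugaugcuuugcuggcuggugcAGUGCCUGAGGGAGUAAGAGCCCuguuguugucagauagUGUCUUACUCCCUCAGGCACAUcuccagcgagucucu
MIR1224 (chr3:184241405-184241489, plus strand) lies within the span of VWA5B2 and is a known mirtron. MIR423 (chr17:30117079-30117172, plus strand) lies within NSRP1. The MIR3180 copies lie on chromosome 16. MIR3180-1 (chr16:14911220-14911313, plus strand) and MIR3180-3 (chr16:18402178-18402271, minus strand) have the same 94 bases. MIR3180-2 (chr16:16309879-16309966, plus strand) is 88 bases long. Those 88 bases lie unchanged within the 94, and the 6 single-base edits between them are bases that its entry lacks at the ends. Signal of the copies cannot be assigned to 1 locus, and the 3 probe sets are not independent. MIR935 (chr19:53982307-53982397) lies within CACNG8, MIR92A1 (chr13:91351314-91351391) within MIR17HG, the host transcript of the miR-17 cluster, MIR1914 (chr20:63941465-63941544) within UCKL1 and MIR500B (chrX:50010672-50010750) within CLCN5. Of the 66 positioned hairpins, 58 lay within the span of another RefSeq gene on either strand and 8 did not. The gene table holds spans only, so exonic and intronic positions were not separated.

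The members were rich in G and C. Their median GC content was 62.3% (range 41.9 to 79.1%, n = 66), and 17 of the 66 (25.8%) were at 70% GC or more. The other hairpins with a RefSeq entry had a median of 47.2% (n = 814), and 22 of them (2.70%) were at 70% or more. Under 50% GC were 13.6% of the members and 59.0% of the other hairpins. The array's own background control probe sets, which match no human transcript and span the range of GC content, behaved likewise: 26 of 34 controls at 70% GC or more had means above the floor (0.83 to 3.88), and 0 of 61 controls under 70% GC did, with a highest mean of 1.04. How far probe GC content set which hairpins passed the floor was not tested.

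Member signals were low. Their means ran from 1.31 to 4.33 with a median of 1.53, 18 were above 2, 5 above 3 and 2 above 4. The other 1040 human hairpins had a median of 0.89. On single arrays 51 to 69 members were above the floor, and 22 members were above it on all 10 arrays. Another 14 were above it on 5 arrays or fewer. By the means of the 2 normalization runs, 46 members were above the floor in both, 14 on the scramble and LINC00324 arrays only and 21 on the LOC400043 arrays only. The members just inside the rule were mir-324 (1.317), mir-194-2_x (1.313) and mir-1539 (1.310), and those just outside were mir-30e (1.310), mir-548h-2_x (1.308) and mir-502_x (1.305), so these neighbours are not told apart by the rule.

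**Figure D1:**
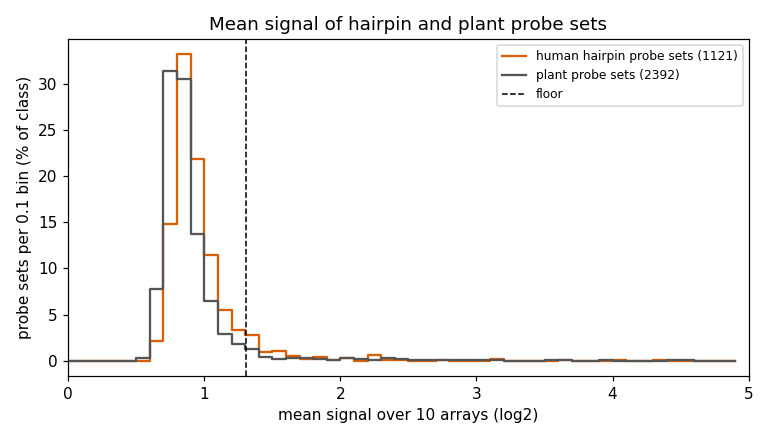
Distribution of the mean log2 signal over 10 arrays (x axis) for 1121 human hairpin and 2392 plant probe sets, as the percent of each class per bin of 0.1 (y axis), with the floor of 1.31 as a dashed line. Most hairpins lie in the same range as the plant probe sets, and 7.23% of hairpins and 4.93% of plant probe sets lie above the floor.

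The 12 members of highest mean were mir-1224, mir-423_s, mir-3180-1_s, mir-500_x, mir-935, mir-3180-2_s, mir-550-2_s, mir-941-2_s, mir-3180-3_s, mir-3185, mir-933 and mir-550-1_s. mir-3180, mir-550 and mir-941 are multicopy, and their probe sets carry the mark s, as does that of mir-423. Which sequences a probe set with this mark matches was not checked. Probe sets differ in affinity, so this order of signals is no order of abundance. Of the 12, 5 were at 70% GC or more. The mirtron mir-1224 read 3.53 and 3.76 on the scramble arrays, 3.34 and 3.37 with LINC00324 siRNA 1, 3.68 and 3.52 with siRNA 2, 5.67 and 5.85 with LOC400043 siRNA 1, and 5.42 and 5.13 with siRNA 2. All 4 LOC400043 arrays, of the other run, were above all 6 others. The hairpin mir-423_s, whose mature arms are widely expressed, read 3.95 and 3.86 (scramble), 3.85 and 3.79, 3.84 and 4.12 (LINC00324 siRNA 1 and 2), 4.08 and 4.66, and 4.31 and 4.31 (LOC400043 siRNA 1 and 2). Its lowest array was 3.79 and its highest 4.66, and it passed in no comparison.

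**Figure D2:**
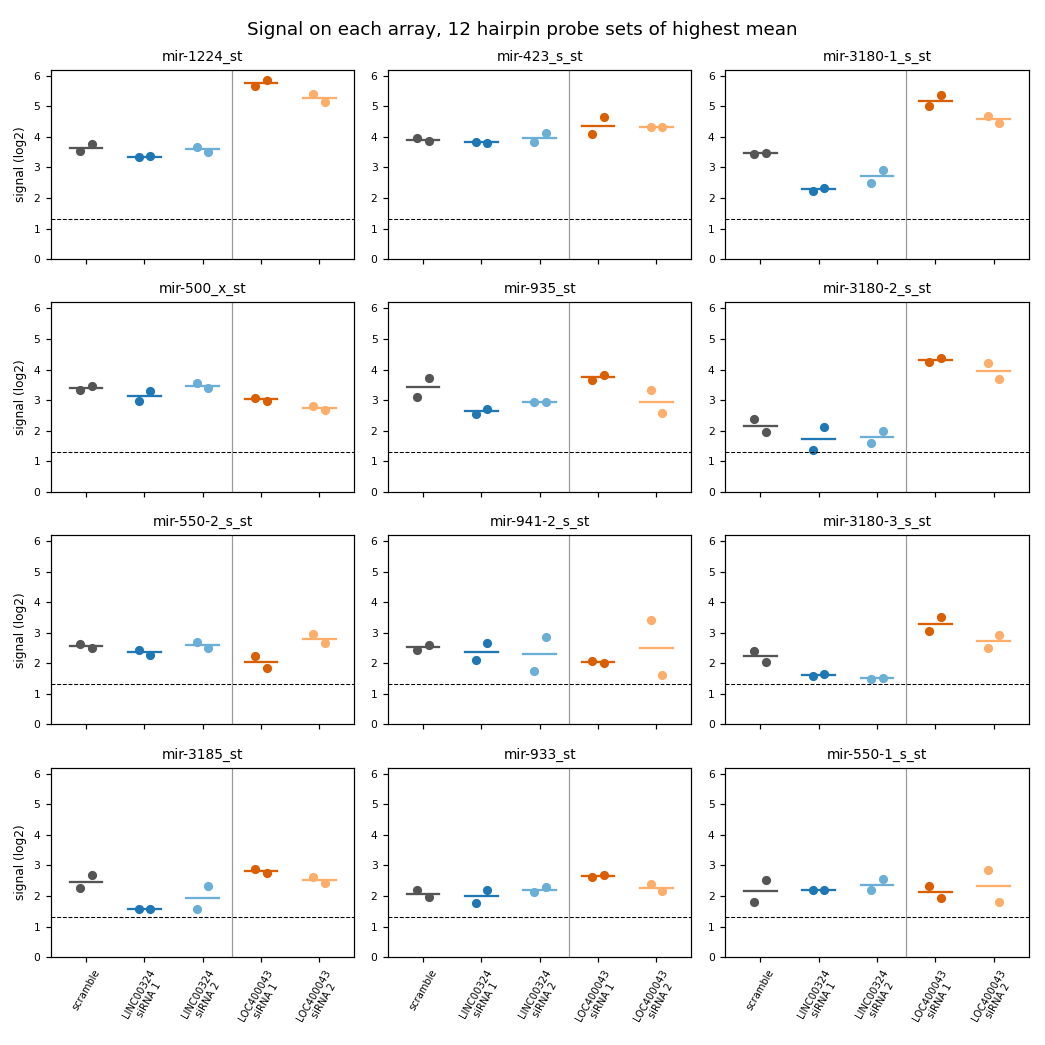
Log2 signal on each array (points) with the group mean (bar) for the 12 hairpin probe sets of highest mean; the grey line separates the 2 normalization runs and the dashed line is the floor. mir-1224 and the 3 mir-3180 probe sets sit higher on the LOC400043 arrays, and mir-423_s stays between 3.79 and 4.66.

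Across the runs, the LOC400043 arrays were a median of 0.23 log2 above the others over the 81 members, with 52 higher. A gap of about 1 or more was seen for 7 members: mir-3180-2_s (2.24), mir-3180-1_s (2.07), mir-1224 (1.98), mir-4284 (1.35), mir-3154 (1.23), mir-3180-3_s (1.21) and mir-25 (1.00), and mir-93, mir-532 and mir-197 were lower by over 0.5 (-0.78, -0.73 and -0.64); those outside the rule for naming were chosen after their values were seen. The gap was 0.46 over the 17 members at 70% GC or more and 0.21 over the 49 below. The background controls at 70% GC or more showed a median gap of 0.63 (-0.04 to 2.42). These controls run to 100% GC and the members to 79.1%. Run, silenced RNA and control probe signal cannot be told apart here, and no test was made.

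Silencing of LINC00324 was set against scramble first, with both siRNAs together. Of the 81 hairpins, 1 fell (mir-3180-1_s) and 1 rose (mir-1308), by limma with a Benjamini-Hochberg adjusted p under 0.05 over all 721 human probe sets above the floor. The call rate over those 721 was 5.55% (1.53% higher, 4.02% lower). At an unadjusted p under 0.05 were 13 members (16%; 2 higher, 11 lower), and the background was 23% (12.5% higher, 10.5% lower). The median difference was -0.01 over the members, with 42 of 81 below 0, and 0.05 over all tested. Counting both directions together, the hairpins had no larger a share past either threshold than all tested probe sets. Lower at an unadjusted p under 0.05 by limma were 11 of 81 hairpins, 60 of 328 mature and 5 of 312 snoRNA or scaRNA probe sets. Higher were 2, 16 and 72. The background thus mixes classes that differ, and the lower share of hairpins lay between those of the other classes. Of the 11 lower hairpins, 7 were at 70% GC or more, and mir-3180-1_s and mir-3180-3_s are copies.

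mir-3180-1_s, a probe set of the multicopy mir-3180 family, read 3.44 and 3.48 with scramble, 2.22 and 2.34 with LINC00324 siRNA 1, and, with siRNA 2, 2.5 and 2.92. All 4 silenced arrays were below both scramble arrays. The difference was -0.96 log2 (SE 0.18, n = 4 against 2, 1.95-fold lower), with a limma adjusted p of 0.0224. By siRNA it was -1.18 (SE 0.21, limma adjusted p = 0.0317) for siRNA 1 and -0.75 (SE 0.21, adjusted p = 0.0536) for siRNA 2. For both siRNAs together, the call was not made with variance trend and robust moderation or with the compared arrays only. The call was lost with quantile normalization (-0.71, adjusted p = 0.102), when each array's trend with GC content was removed (-0.49, adjusted p = 0.131) and without scramble replicate 1 or 2 (adjusted p = 0.172 and 0.121). It was also lost without LINC00324 siRNA 1 replicate 1 (0.0658) or 2 (0.0502) or siRNA 2 replicate 1 (0.0548), and it was kept without siRNA 2 replicate 2. The other copies did not pass: mir-3180-3_s read 2.42 and 2.05 with scramble, 1.60 and 1.65, and 1.49 and 1.52 (siRNA 1, then siRNA 2; -0.67, SE 0.20, limma adjusted p = 0.110), and mir-3180-2_s read 2.37 and 1.94, 1.35 and 2.12, and 1.58 and 1.99 (-0.40, SE 0.28, limma adjusted p = 0.464), where scramble and silenced arrays overlapped and the sign turned with the GC trend removed (0.10).

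mir-1308 was 1 of 2 members (with mir-1275) from a list drawn up as precursors annotated in other noncoding RNAs. The list was not checked against sequences, and no other RefSeq gene spanned MIR1275. For mir-1308 there was no RefSeq hairpin here. It read 1.72 and 1.63 with scramble, 2.12 and 2.10 with LINC00324 siRNA 1, and 2.38 and 2.48 with siRNA 2. All 4 silenced arrays were above both scramble arrays. The difference was 0.60 (SE 0.13, n = 4 against 2, 1.51-fold higher, limma adjusted p = 0.0373), and by siRNA 0.43 (adjusted p = 0.234) and 0.76 (adjusted p = 0.0266). For both siRNAs together, the call was not made with all human probe sets tested or with the GC trend removed from other probe sets. Nor was it made with variance trend and robust moderation or with the compared arrays only. It was lost with the replicate number as a block (adjusted p = 0.0708) and without any 1 of the 6 arrays: without scramble replicate 1 or 2 (0.190 and 0.175), LINC00324 siRNA 1 replicate 1 or 2 (0.0949 and 0.0755) or siRNA 2 replicate 1 or 2 (0.0788 and 0.0916). Set against scramble alone, each siRNA called 1 hairpin, and either call was lost without any 1 of the arrays compared: mir-3180-1_s with siRNA 1, where 2.77% of the tested probe sets were called, 0% higher, and mir-1308 with siRNA 2, where 14.1% were called (9.15% higher, 4.99% lower). At an unadjusted p under 0.05 were 11 hairpins with siRNA 1 (3 higher, 8 lower) and 10 with siRNA 2 (1 higher, 9 lower), with backgrounds of 13% (4.44% higher, 8.6% lower) and 30.7% (19.3% higher, 11.4% lower). The 2 siRNAs set against each other called none of the hairpins (limma, 0.277% of all tested), and 5 were at an unadjusted p under 0.05 (3 higher, 2 lower), with a background of 22.2% (16.8% higher, 5.41% lower).

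**Figure D3:**
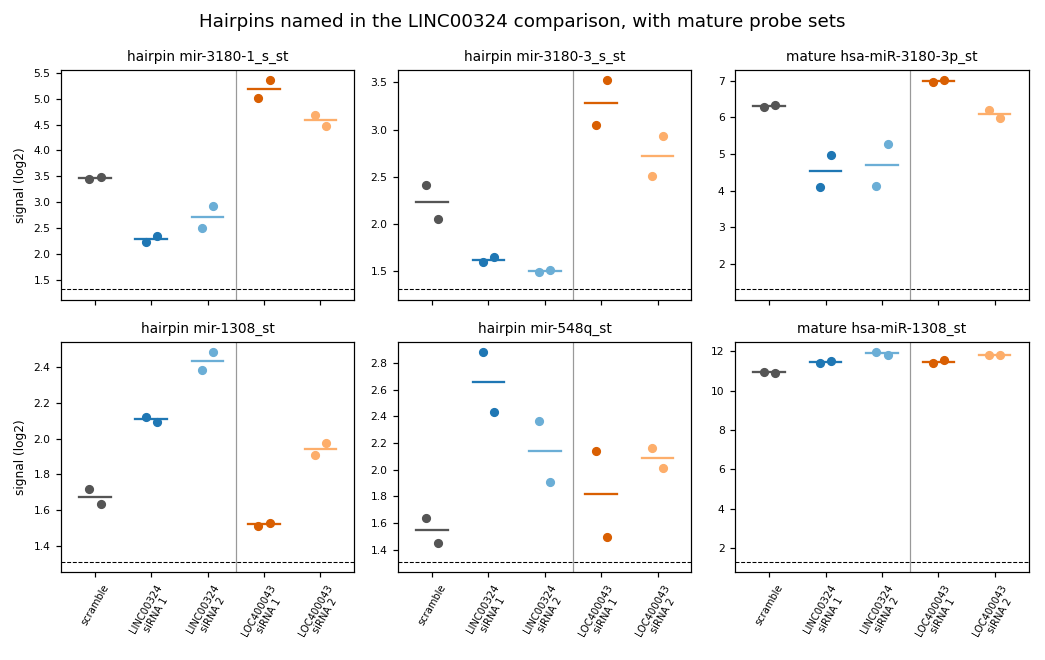
Log2 signal on each array (points, bar as the group mean) for 4 hairpin probe sets and 2 mature probe sets; the grey line separates the 2 normalization runs, the dashed line is the floor, and the y axes differ and do not start at 0. The 4 LINC00324 arrays are below scramble for mir-3180-1_s and above it for mir-1308.

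Of the other 6 members with the lowest p-values, none passed. mir-663b and mir-1914 were above the floor on both scramble arrays and below it on 3 of 4 silenced arrays, and mir-663_x was below it on 4 of 4. For mir-663b the values were 1.94 and 1.91 (scramble), 0.95 and 1.04, and 1.45 and 1.27 (-0.75, limma adjusted p = 0.0568), for mir-1914 they were 2.46 and 1.40, 1.35 and 0.78, and 0.61 and 1.11 (-0.97, adjusted p = 0.122), and for mir-663_x they were 1.49 and 2.07, 0.78 and 1.03, and 1.12 and 1.00 (-0.80, adjusted p = 0.127). Since values under the floor are not measured levels, the differences with those values raised to it were -0.58, -0.61 and -0.47. mir-3185 read 2.26 and 2.68, 1.57 and 1.58, and 1.57 and 2.32 (-0.72, limma adjusted p = 0.116). mir-548q read 1.64 and 1.45, 2.88 and 2.44, and 2.37 and 1.91 (0.85, adjusted p = 0.0942), while its second probe set, mir-548q_x, gave 0.04 (adjusted p = 0.960), so the probe sets of 1 precursor disagree.

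Scramble and silenced arrays did not overlap for 17 members, 4 higher and 13 lower (21%, with 4.94% higher and 16% lower). Over all tested probe sets the share was 23.3% (11.5% higher, 11.8% lower). Of the 13 lower members, 9 were at 70% GC or more. In the class of 70% GC or more the median difference was -0.40 over hairpins (15 of 17 lower), -0.70 over mature probe sets (42 of 52 lower) and -0.70 over background controls (34 of 34 lower). The controls run to 100% GC and the hairpins to 79.1%, so these medians are not of like GC content. Controls at 70.6, 71.4 and 72.0% GC were at -0.12, -0.13 and -0.12. Those at 76.0, 76.2 and 76.5% were at -0.56, -0.55 and -0.25, and the lowest at 100% was at -1.21. GC content is that of the whole precursor for a hairpin. Under 50% GC it was 0.29 for hairpins (8 of 9 higher), and 0.03 for controls. Most GC-rich hairpins thus moved in the same direction as controls that match no human RNA. The part of the controls' difference in the hairpins' values was not tested. mir-3180-1_s is at 75.5% GC, mir-663b at 70.4% and mir-1914 at 71.2%.

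**Figure D4:**
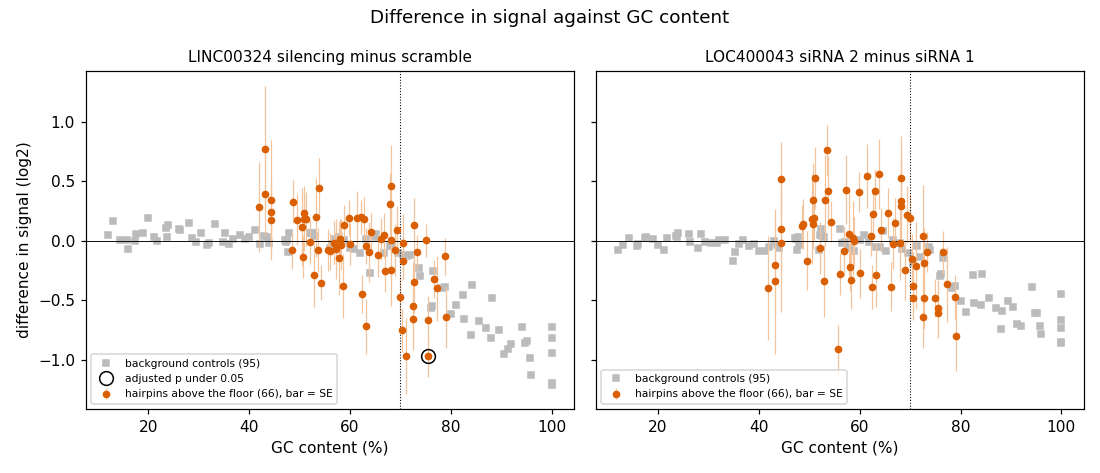
Difference in log2 signal against GC content (%) for 66 hairpins above the floor (orange, bar as SE) and 95 background controls (grey squares), LINC00324 silencing minus scramble (left) and LOC400043 siRNA 2 minus siRNA 1 (right); circles mark limma adjusted p under 0.05 and the dotted line is 70% GC. At 70% GC or more the controls and most hairpins lie below 0 in both panels, with control medians of -0.70 and -0.51. The controls run to 100% GC and the hairpins to 79.1%.

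The 2 LOC400043 siRNAs were set against each other in their own run. No hairpin passed (limma, 0 of 81, with 0.555% of the 721 called). At an unadjusted p under 0.05 were 13 hairpins (16%, 5 higher and 8 lower), and the background was 16.6% (11.8% higher, 4.85% lower). By class, 8 of 81 hairpins, 26 of 328 mature and 1 of 312 snoRNA or scaRNA probe sets were lower, and 5, 24 and 56 were higher. Of the 8 lower hairpins, 7 were at 70% GC or more, and mir-3180-1_s and mir-3180-3_s are copies. The median difference, siRNA 2 minus siRNA 1, was 0.00 over the members and 0.15 over all tested. mir-500b, a copy of the miR-500 precursor on chromosome X, read 1.85 and 2.16 with siRNA 1 and 1.08 and 1.10 with siRNA 2, both below the floor (-0.91, or -0.69 from the floor, limma adjusted p = 0.129). mir-550-2_s read 2.26 and 1.84 with siRNA 1 and 2.97 and 2.65 with siRNA 2 (0.76, adjusted p = 0.160). Next came mir-92b (-0.48, or -0.25 from the floor, since both siRNA 2 arrays were below it), mir-1308 (0.42), mir-3180-1_s (-0.61), mir-935 (-0.80), mir-1224 (-0.48) and mir-572 (-0.47), all at adjusted p of 0.234 or more. Arrays of the 2 siRNAs did not overlap for 33 members, 16 higher and 17 lower (40.7%, with 19.8% higher and 21% lower). Over all tested the share was 49.7% (35.6% higher, 14% lower). Of the 17 lower members, 10 were at 70% GC or more. In that class the medians were -0.38 for hairpins (15 of 17 lower) and -0.51 for background controls (34 of 34 lower). Controls at 70.6, 71.4 and 72.0% GC were at -0.19, -0.05 and -0.13, and those at 76.0, 76.2 and 76.5% at -0.30, -0.28 and -0.15. The hairpins reach 79.1% GC and the controls 100%, so these medians too are not of like GC content.

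Mature probe sets of the same precursors were read beside the hairpins. Each of the 81 hairpins has a mature probe set, 56 have at least 1 above the floor and 25 have none, which gives 77 pairs over 70 mature probe sets. After LINC00324 silencing 46 of 77 pairs had the same sign (31 both lower, 15 both higher), 20 had a higher hairpin with a lower mature RNA and 11 the reverse. Between the LOC400043 siRNAs 54 of 77 had the same sign. These counts are a description, since copies share a mature probe set, and the pairs carry no test.

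In all, 9 mature probe sets beside members passed after LINC00324 silencing, 8 of them lower; those whose hairpin was not named above were chosen after their values were seen. Without scramble replicate 1, scramble replicate 2 or LINC00324 siRNA 2 replicate 1, 0 of the 9 passed, and without siRNA 1 replicate 1 or 2 the count was 4 or 6. With the trend with GC content removed 1 of the 9 passed, miR-1909. The value of miR-1308, which has no GC content here, was not corrected. The mature arms of mir-3180 and mir-3185 only are printed, with the seed, bases 2 to 8, which pairs with targets, in capitals.
miR-3180-3p: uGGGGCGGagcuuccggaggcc
miR-3180-5p: cUUCCAGAcgcuccgccccacgucg
miR-3185: aGAAGAAGgcggucggucugcgg
The 3 seeds differ, and miR-3180-5p was not above the floor. miR-3180-3p, the other arm of the 3 mir-3180 hairpins, read 6.28 and 6.32 with scramble, 4.11 and 4.96 with LINC00324 siRNA 1, and 4.12 and 5.28 with siRNA 2 (-1.68, SE 0.34, limma adjusted p = 0.0340). It fell, as its hairpin mir-3180-1_s did, and it is at 77.3% GC. miR-1308 read 10.96 and 10.91, 11.42 and 11.53, and 11.94 and 11.83 (0.74, SE 0.13, limma adjusted p = 0.0194), so the mature and hairpin probe sets of this precursor both rose. miR-3185 fell (-1.24, limma adjusted p = 0.0187) where its hairpin was at -0.72 and did not pass. miR-663, at 90.9% GC, fell (-0.93, limma adjusted p = 0.0340) beside mir-663_x at -0.80. Its call was lost with median centring, with the GC trend removed and with the replicate number as a block.

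Other mature arms passed where their hairpins did not. miR-550 fell by 1.35 (limma adjusted p = 0.0194), while mir-550-2_s was at -0.08 and mir-550-1_s at 0.12. By siRNA, miR-550 was at -0.73 (limma adjusted p = 0.295) for siRNA 1 and -1.96 (adjusted p = 0.0237) for siRNA 2. Its call was lost with quantile normalization and with the GC trend removed. The other arm, miR-550-star, did not pass (-0.39, limma adjusted p = 0.681), at 0.37 for siRNA 1 and -1.16 for siRNA 2. miR-1909 (-2.19), miR-3178 (-1.20), miR-1181 (-1.18) and miR-1231 (-1.64) also fell, with hairpins at -0.66, -0.55, -0.34 and -0.38, and limma adjusted p-values between 0.0174 and 0.0214. These 4 mature probe sets are at 81.8%, 88.2%, 85.7% and 70% GC, in the class where 34 of 34 background controls were lower. The size of the controls' difference varied within that class. Controls at 69.6 and 70.6% GC were at -0.10 and -0.12, and those at 81.0, 82.4 and 82.6% at -0.54, -0.45 and -0.66. Controls at 85.7, 88.0 and 88.2% were at -0.67, -0.82 and -0.48. The controls' part in the mature values was not tested. miR-1224-5p (0.37), miR-423-3p (-0.13) and miR-423-5p (0.21) did not pass, nor did their hairpins, at -0.17 and -0.01. Between the LOC400043 siRNAs, 0 of the 70 mature probe sets beside members passed (limma).

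**Figure D5:**
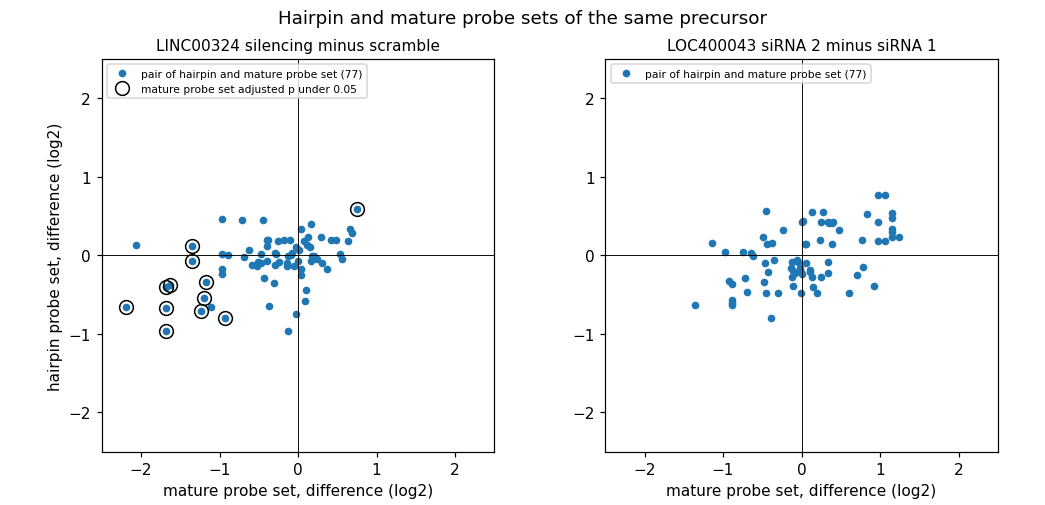
Difference of the hairpin (y axis, log2) against that of the mature probe set (x axis, log2) for 77 pairs, LINC00324 silencing minus scramble (left) and LOC400043 siRNA 2 minus siRNA 1 (right); circles mark mature probe sets with a limma adjusted p under 0.05. The pairs with a lower mature probe set at adjusted p under 0.05 have hairpins from -0.96 to 0.12.

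By group, few precursors of well-known miRNAs were members. The 20 let-7 and 58 14q32 cluster hairpin probe sets had none. The miR-17 cluster and its paralogs, whose mature miRNAs promote proliferation, had 3 of 23: mir-92a-1, mir-93 and mir-25. mir-92a-1 read 1.65 and 1.67 with scramble, 1.85 and 1.82 with LINC00324 siRNA 1, and 2.28 and 2.01 with siRNA 2, above scramble on all 4 (0.33, SE 0.18, limma adjusted p = 0.341). The chromosome 19 cluster, a placental miRNA cluster, had 3 of 56 (mir-520g_s, mir-517a_x and mir-520h_s), the p53-responsive list 1 of 12 (mir-194-2_x), and 43 hairpins of other miRNAs abundant in the line 2 (mir-423_s and mir-222), though 32 of 49 of their mature probe sets were above the floor. Mirtrons and other Drosha-independent precursors had 6 of 25, among them mir-1224, mir-1229, mir-1234 and mir-1231, with a LINC00324 median of -0.06 and 0 past the test. Of all these lists, the only member past the test after LINC00324 silencing was mir-1308. Among marker lists of other cell types, mir-9-3 (2 probe sets, of 14 neuron hairpins) and mir-126 (endothelium) were members, with means of 1.49, 1.37 and 1.40.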

How the data were processed

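The values were the log2 signals that the authors deposited for 10 Affymetrix miRNA arrays. The submitters' processing notes name limma, and no source used here gives the background correction or normalization. The deposited scramble and LINC00324 columns equal the LINC00324 table on 1080 shared probe sets, while the LOC400043 columns come from another run; 4 columns of per-sample values were not used. Members, lists and tests were chosen with earlier results of these data known.

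All 721 human probe sets with a mean above the floor were fitted together with limma 3.58.1 in R 4.3.3 (1 mean per group, 5 residual and 2.61 prior degrees of freedom), with Benjamini-Hochberg adjustment over them; the fit was tested on simulated data. The median residual SD was 0.27 log2 over all and 0.24 over hairpins. With 2 arrays a group, the number of arrays limits the precision. Tables and figures used Python 3.11.15, pandas 2.3.3 and matplotlib 3.10.9. Hairpins were matched to RefSeq by name and mature probe sets by name without the copy number. Named were every member that passed and the lowest p up to 8 per comparison, the 12 of highest mean, the 3 on each side of the floor, and up to 4 per list. Replicate numbers were not treated as pairs. Deviations of same-numbered arrays correlated at -0.264 to 0.171, which does not show pairing and cannot exclude it. Alternatives were other probe sets, floors, normalizations, a GC trend, moderation, arrays fitted, a replicate block, each array left out and a 2-fold rule. The GC trend was removed only from probe sets with a GC value. The 15 members without a RefSeq hairpin and all snoRNA and scaRNA probe sets kept their deposited values there.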

Additional observations from a re-analysis of the deposited data

How the results depend on the processing

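After LINC00324 silencing 2 of 81 hairpins passed. The same 2 passed with all rows of the table tested, and with median centring, where mir-548q joined them (3). With the replicate block mir-3180-1_s and mir-548q passed (2). Where the GC trend is removed below, probe sets without a GC value, mir-1308 and mir-548q among them, kept their deposited values. The count was 1 with all human probe sets and with quantile normalization, and 0 after removing the GC trend of every array, with variance trend and robust moderation, with the compared arrays only, and with a 2-fold rule; leaving out 1 array gave 0 to 2. For siRNA 1 (1 hairpin) it was 2 with the 2-fold rule and with the replicate block, and 0 with quantile normalization, median centring, the GC trend removed, trend and robust moderation, the compared arrays only and each array left out (0 to 0). For siRNA 2 (1 hairpin) it was 2 with the GC trend removed, 1 with the replicate block, and 0 with trend and robust moderation, the compared arrays only and each array left out (0 to 0). Between the siRNAs of each target it was 0 throughout. Of the 9 mature calls beside members, 0 were kept with the compared arrays only.

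None of the 8 hairpins of lowest p in each comparison changed sign. Other named values, none of them past the test, did. With quantile normalization, median centring and the GC trend removed, mir-550-2_s came to 0.10, 0.12 and 0.10, mir-423_s to 0.21, 0.19 and 0.15, and mir-1224 to 0.10, 0.024 and 0.24. miR-423-3p came to 0.067 with centring and 0.21 with the GC trend removed, which also gave mir-3180-2_s 0.10 and mir-1181 0.10. With 1 array left out, mir-550-1_s ranged from -0.23 to 0.47, mir-548q_x from -0.22 to 0.30 and mir-423_s from -0.077 to 0.060. The cause was not tested. The member median moved from -0.01 to 0.06, 0.18 and 0.22 with quantile normalization, centring and the GC trend removed, and that of all tested from 0.05 to 0.06, 0.24 and 0.15. With the GC trend removed, both medians mix corrected values with those of probe sets that have no GC value. The pairing check did not show that replicate numbers pair arrays. No hairpin mean exceeded the 99th percentile of plant probe sets (4.50), so that floor gave no value. Low signal over background limits what these hairpins can show: 14 of 81 were above the floor on 5 arrays or fewer.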
